A study of Rattus norvegicus with 24 samples.

Results

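The genes described here code for the subunits of the 5 oxidative phosphorylation complexes of the mitochondrial inner membrane, measured as transcripts in rat lung. Members were taken by name, as every gene symbol that begins with the letters Nduf followed by a, b, c, s or v, with Uqcr, with Cox and a number from 4 to 8, or with Atp5, together with Sdha, Sdhb, Sdhc and Sdhd. This gave 96 of the 30043 genes in the count table: 40 subunits of complex I, 4 of complex II, 8 of complex III, 17 of complex IV and 15 of complex V. The remaining 12 are 7 complex I assembly factors, Ndufa4l2, Atp5s, Atp5sl, Cox7a2l and Cox7a2l2. Subunits encoded by mitochondrial DNA do not fall under these names. They were looked for separately by symbol, none was found in the count table, and they were not analysed here. The naming rule itself uses symbols only and no measured value.

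RNA was sequenced from a piece of lung of each of 24 male Fischer 344 rats, 6 per group, bought at 3 months of age and kept for 29 weeks in a study with a whole-body inhalation chamber. The air group breathed air only. The silica group breathed crystalline silica (Min-U-Sil5, a mineral dust) at 15 mg/m3 for 6 hours a day on 5 days of week 3, and air before and after. The smoke group breathed cigarette smoke for 3 hours on 2 days of each week except week 3, at 40 mg/m3 in week 1 and 80 mg/m3 from then on. The combined group breathed both on the same schedule, with a week 1 smoke level of 45 mg/m3 rather than 40.

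Oxidative phosphorylation passes electrons from NADH and succinate through complexes I and II to ubiquinone, then through complex III and cytochrome c to complex IV, which reduces oxygen. Complexes I, III and IV pump protons as they do so, and complex V, the ATP synthase, uses the proton gradient to make ATP. In the lung, alveolar type 2 cells, which make surfactant, and ciliated cells are known to be rich in mitochondria, whereas activated macrophages and neutrophils lean on glycolysis.

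Sequencing depth was uneven, and 3 libraries stood apart: smoke 2 by its depth, and silica 1 and smoke 1 by a marker given below. Smoke 2 held 21629 counts, 57 of them in members, and haemoglobin transcripts took 56.0% of it. Silica 4 held 280484 counts, and the others held 1084815 to 4687805. Levels below are in CPM, counts scaled to a common library total after TMM normalisation. One count in smoke 2 is worth 53.0 CPM, so levels of single members in the smoke group are given over the other 5 libraries. The tests keep all 24. Members took 0.351% to 0.457% of all counts in the libraries other than smoke 2. Mmp12, a macrophage elastase, stood at 3.20 CPM in the library labelled silica 1, where the other silica libraries had 57.4 to 75.8 CPM, and at 57.2 CPM in the library labelled smoke 1, where 4 other smoke libraries reached no more than 11.8 CPM. No label was altered, and the main counts are repeated with silica 1, smoke 1 and smoke 2 left out. Sftpc, the alveolar type 2 surfactant protein that marks lung tissue, stood at 4063 CPM or more in every library other than smoke 2.

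Sdhb, Atp5o, Atp5e and Atp5a1 were among the members called below. Each had a RefSeq promoter entry holding at least 1 of 4 sequence motifs known for nuclear respiratory genes. The motifs were searched on both strands as GCGCATGCG (the core of the NRF1 motif), CCGGAAG (bound by ETS family factors such as GABP), AAGATGGCG (YY1) and AAGGTCA (the estrogen-related receptors). No matches of different motifs overlapped. The 250 bases before each annotated start are shown in gene orientation, 5′ to 3′, with the matches in capitals. These members were picked because each was called in at least 1 comparison below and shows 1 or 2 of these motifs. Atp5a1 was called against smoke only. Atp5d, Ndufb1, Ndufa12 and Ndufa4, which were also called, had an entry with none of the 4 motifs, and Cox6c and Ndufa8 had no entry. The sequences shown come from RefSeq, build GRCr8. Sdhb lies at chr5:158547684-158547933 on the plus strand and has the ETS letters. Atp5o lies at chr11:44657484-44657733 on the minus strand and has the NRF1 letters, on both strands in 1 overlapping stretch. Atp5e lies at chr3:183680173-183680422 on the minus strand and Atp5a1 at chr18:73567287-73567536 on the plus strand, both with the estrogen-related receptor letters on the reverse strand and Atp5a1 with the ETS letters before them.
Sdhb: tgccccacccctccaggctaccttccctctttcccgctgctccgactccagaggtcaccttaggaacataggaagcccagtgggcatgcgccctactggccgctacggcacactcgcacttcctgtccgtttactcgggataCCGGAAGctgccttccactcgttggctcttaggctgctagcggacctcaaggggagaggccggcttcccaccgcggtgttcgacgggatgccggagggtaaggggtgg
Atp5o: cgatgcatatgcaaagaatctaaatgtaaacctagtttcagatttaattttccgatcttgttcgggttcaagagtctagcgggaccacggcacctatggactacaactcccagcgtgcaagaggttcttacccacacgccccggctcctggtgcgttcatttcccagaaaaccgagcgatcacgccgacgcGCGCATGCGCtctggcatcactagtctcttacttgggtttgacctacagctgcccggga
Atp5e: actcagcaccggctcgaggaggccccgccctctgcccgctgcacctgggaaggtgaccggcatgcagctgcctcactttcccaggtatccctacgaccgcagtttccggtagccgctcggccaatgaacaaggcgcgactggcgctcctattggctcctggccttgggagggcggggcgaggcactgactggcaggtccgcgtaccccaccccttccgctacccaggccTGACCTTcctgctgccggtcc
Atp5a1: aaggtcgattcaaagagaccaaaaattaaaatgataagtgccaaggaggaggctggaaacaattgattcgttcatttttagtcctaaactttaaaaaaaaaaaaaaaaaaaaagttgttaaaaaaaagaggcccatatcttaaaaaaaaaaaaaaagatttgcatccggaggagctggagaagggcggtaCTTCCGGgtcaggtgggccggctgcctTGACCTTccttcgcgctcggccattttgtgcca

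Of the 96 members 82 matched a promoter entry, and these shared 80 distinct 300-base windows (250 bases before the start and 50 after). The NRF1 letters were in 8 of the 80 windows (10.0%), against 2.03% of the windows of all 19005 protein-coding genes. The ETS letters were in 20 (25.0%) against 11.2%, the YY1 letters in 10 (12.5%) against 2.29%, and the estrogen-related receptor letters in 11 (13.8%) against 3.70%. None of the 4 was in 43 of the 80 windows. Of the 18 members called in any comparison below, 16 had a window. The estrogen-related receptor letters were in 7 of those 16 (Atp5a1, Atp5e, Atp5l, Ndufb2, Ndufs5, Sdhd and Uqcrq), the ETS letters in 7 (Atp5a1, Atp5l, Cox5b, Ndufa2, Sdhb, Sdhd and Uqcrq), the YY1 letters in 2 (Atp5j2 and Ndufa2) and the NRF1 letters in 2 (Atp5l and Atp5o). Such a match describes the letters only.

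Summed over its members, every complex had its highest median level in the combined group. The sum over all 96 members was 3857 to 4125 CPM in air (median 4073), 3876 to 4453 in silica (median 4138), 3478 to 4135 in 5 smoke libraries (median 3956) and 4325 to 4651 in the combined group (median 4504). The 6 combined libraries all lay above the 6 air and the 5 smoke libraries, while 2 silica libraries, silica 2 at 4453 CPM and silica 3 at 4333 CPM, reached into the combined range. Smoke 1 was the highest of the smoke libraries, at 4135 CPM, and silica 1 the lowest of the silica libraries, at 3876 CPM. Without them the ranges were 3889 to 4453 CPM in silica and 3478 to 3986 CPM in smoke.

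Complex I sums were 1093 to 1179.6 CPM in air and 1191 to 1282 CPM in the combined group, without overlap. Complex IV sums were 581 to 656 CPM in air, 575 to 680.0 in silica, 522 to 610.1 in smoke and 675 to 730.2 in the combined group. Over the 5 smoke libraries, its combined range overlapped that of silica only. Complex V sums were 1286 to 1407 CPM in air and 1435 to 1649 CPM in the combined group. Smoke 1, at 1432 CPM, was just under the lowest combined library. Complex II sums were 323 to 346 CPM in air and 335 to 379.7 in the combined group and overlapped, as did complex III sums, at 369 to 411 and 409 to 439.5 CPM. These sums are a description, with no test.

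**Figure D1:**
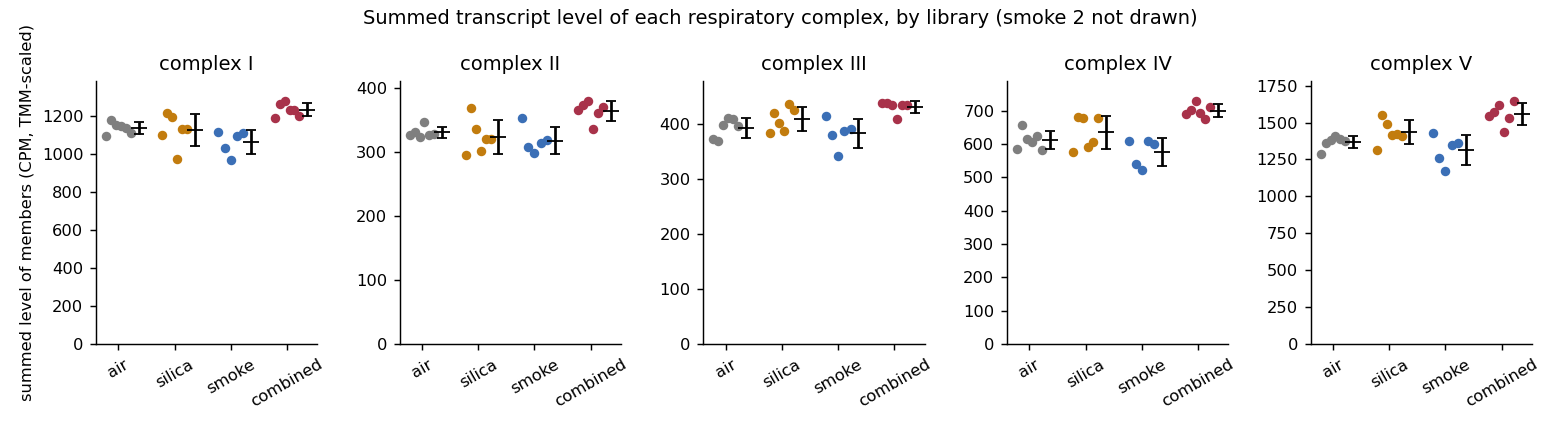
Summed level of the members of each complex in CPM (vertical axis) in each library, by group on the horizontal axis, with 6 libraries per group and 5 for smoke. Points are libraries and the bar beside them is the mean ± SD. Combined libraries sit above all air libraries for complexes I, IV and V (complex IV 675 to 730.2 against 581 to 656 CPM) and overlap air for complexes II and III.

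Single members were tested with edgeR's quasi-likelihood test in a fit of all 13322 genes that passed a filter on low counts, and a member was called when its p, adjusted by Benjamini-Hochberg over all those genes, was under 0.05. Of the 96 members 82 were tested: 35 of complex I, 4 of complex II, 8 of complex III, 11 of complex IV, 14 of complex V and 10 others. The 14 that did not pass were Atp5f1, Cox6a2, Cox6b2, Cox6c-ps1, Cox7a2l2, Cox7b2, Cox8b, Cox8c, Ndufa1, Ndufa1-2, Ndufaf2, Ndufb1-2, Ndufs6 and Ndufv3-ps1. Differences between groups are on the log2 scale, each given with its standard error after ±.

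After both exposures, members of all complexes but complex III passed the test as higher than in air, and none as lower. The called members were 10 of 82 (12.2%), beside 11.6% of all genes called higher and 10.8% called lower, so the share of members called higher was near that of the whole table. They were Ndufa2, Ndufa12, Ndufb1 and Ndufs5 of complex I, Sdhb and Sdhd of complex II, Cox6c of complex IV and Atp5d, Atp5e and Atp5o of complex V. The median log2 difference was 0.15 over the 82 tested members and -0.01 over all genes, and 69 of the 82 were above 0. At an unadjusted p under 0.05, 21 members (beside 17% of all genes) were higher and 1 was lower (beside 17.6%). The differences were modest, from -0.62 for Ndufa4l2 to 0.66 for Ndufa12, and the median standard error was 0.12. In 6 of the 82 members (7.32%) all combined libraries lay above all air libraries, beside 6.37% of all genes, and in none did they lie below, beside 4.93%. Because these were pieces of whole lung, more cells of a type and more RNA per cell cannot be told apart.

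Complex II held the member with the smallest p. Sdhb codes for the iron-sulphur subunit that carries electrons from the flavoprotein to ubiquinone. It stood at 44.9 to 51.7 CPM (median 49.5) in air, 45.2 to 64.6 CPM (median 52.8) in silica, 45.0 to 58.8 CPM (median 46.4) in smoke and 60.0 to 81.6 CPM (median 66.5) in the combined group. All 6 combined libraries lay above all air and smoke libraries, and 1 silica library reached into their range. Sdhb rose by 0.47 ± 0.094 in combined over air (1.38-fold, edgeR adjusted p = 0.00064). Sdhd, a membrane anchor of the complex, stood at 55.3 to 67.4 CPM (median 63.6) in air and 67.4 to 78.4 CPM (median 71.9) in the combined group. The lowest combined library was just under the highest air library, and Sdhd rose by 0.24 ± 0.084 (edgeR adjusted p = 0.042). Sdhc, the other anchor, stood at 44.4 to 55.2 CPM (median 49.5) in air and 50.7 to 67.9 CPM (median 57.6) in the combined group, a log2 difference of 0.22 ± 0.10 that was not called (edgeR adjusted p = 0.1). Sdha, the flavoprotein that oxidises succinate, stood at 165 to 177 CPM (median 168) in air and 145 to 179 CPM (median 167) in the combined group. The Sdha groups overlapped fully, with a log2 difference of -0.03 ± 0.068 (edgeR adjusted p = 0.88), so 2 of the 4 subunits of this complex were called.

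Complex V gave 3 of the called members, all of them outside the catalytic hexamer's alpha and beta chains. Atp5o codes for the oligomycin sensitivity-conferring protein, which joins the peripheral stalk to the catalytic head. It stood at 41.5 to 63.0 CPM (median 59.5) in air, 56.2 to 86.1 CPM (median 59.4) in silica, 50.1 to 60.7 CPM (median 59.1) in smoke and 73.3 to 83.2 CPM (median 76.2) in the combined group. Every combined library was above every air and smoke library. Atp5o rose by 0.44 ± 0.093 over air (edgeR adjusted p = 0.0011). Atp5e and Atp5d code for the epsilon and delta subunits of the central stalk. Atp5e stood at 42.5 to 54.2 CPM (median 47.4) in air and 52.6 to 89.9 CPM (median 68.4) in the combined group, where 2 combined libraries lay inside the air range. It rose by 0.50 ± 0.13 (edgeR adjusted p = 0.0075). Atp5d stood at 28.1 to 48.4 CPM (median 43.6) in air, 35.9 to 64.6 CPM (median 51.4) in silica, 45.7 to 52.9 CPM (median 48.1) in smoke and 49.2 to 73.9 CPM (median 52.6) in the combined group. Its combined libraries lay above all air libraries but overlapped those of silica and smoke, and it rose by 0.47 ± 0.13 over air (edgeR adjusted p = 0.0074). By contrast Atp5b, the catalytic beta subunit, stood at 503 to 555 CPM (median 524) in air and 498 to 650.3 CPM (median 585) in the combined group, with overlap and a log2 difference of 0.15 ± 0.086 (edgeR adjusted p = 0.23). Atp5a1, the alpha subunit, gave 0.12 ± 0.092 (edgeR adjusted p = 0.39).

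In complex IV, the oxidase, Cox6c was the 1 called member against air. It codes for a small subunit with a single membrane span. Cox6c stood at 48.9 to 67.0 CPM (median 58.7) in air, 54.7 to 76.7 CPM (median 68.8) in silica, 41.8 to 60.7 CPM (median 54.6) in smoke and 68.6 to 92.9 CPM (median 78.6) in the combined group. All combined libraries were above all air and smoke libraries, and silica lay between with overlap on both sides. Cox6c rose by 0.44 ± 0.11 (edgeR adjusted p = 0.0032). Cox4i1, the ubiquitous form of the largest nuclear-encoded subunit, stood at 107 to 143 CPM (median 126) in air and 123 to 153 CPM (median 139) in the combined group and gave 0.16 ± 0.091, not called (edgeR adjusted p = 0.22). Cox6a1 gave 0.20 ± 0.075, just outside the threshold (edgeR adjusted p = 0.05).

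Complex I, the NADH dehydrogenase, had 4 called members of 35 tested, each an accessory subunit rather than a core subunit. Ndufa2, at the matrix arm, stood at 15.7 to 25.4 CPM (median 19.3) in air and 23.7 to 31.0 CPM (median 26.9) in the combined group, with overlap, and rose by 0.41 ± 0.14 (edgeR adjusted p = 0.029). Ndufb1, a small membrane-arm subunit, stood at 16.6 to 22.4 CPM (median 19.0) in air and 22.2 to 36.6 CPM (median 23.3) in the combined group, where combined 4 was far above the others and 2 libraries were just under the highest air library. It rose by 0.35 ± 0.12 (edgeR adjusted p = 0.031). Ndufs5, on the intermembrane-space side, stood at 19.4 to 26.2 CPM (median 22.3) in air and 22.6 to 33.6 CPM (median 31.5) in the combined group and rose by 0.34 ± 0.12 (edgeR adjusted p = 0.048). Ndufa12, an accessory subunit of the matrix arm, had few counts, at 6.35 to 8.79 CPM (median 7.66) in air and 7.77 to 20.3 CPM (median 10.5) in the combined group, where combined 5 was the highest. It rose by 0.66 ± 0.24 (edgeR adjusted p = 0.044), and without combined 5, among others, it was no longer called. The core subunit Ndufs1 gave 0.17 ± 0.086 and was not called (edgeR adjusted p = 0.16).

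No complex III member was called against air. Of its 8 tested members 8 were above 0, and the median log2 difference was 0.12. Uqcrc1, a core protein of the complex, stood at 66.9 to 81.0 CPM (median 73.7) in air and 82.6 to 94.0 CPM (median 88.3) in the combined group. These groups did not overlap, and the log2 difference was 0.26 ± 0.10 (edgeR adjusted p = 0.058). Uqcrc2, its partner core protein, gave 0.04 ± 0.084, and Uqcrh, the hinge protein that docks cytochrome c, gave 0.08 ± 0.11, both with overlapping groups.

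**Figure D2:**
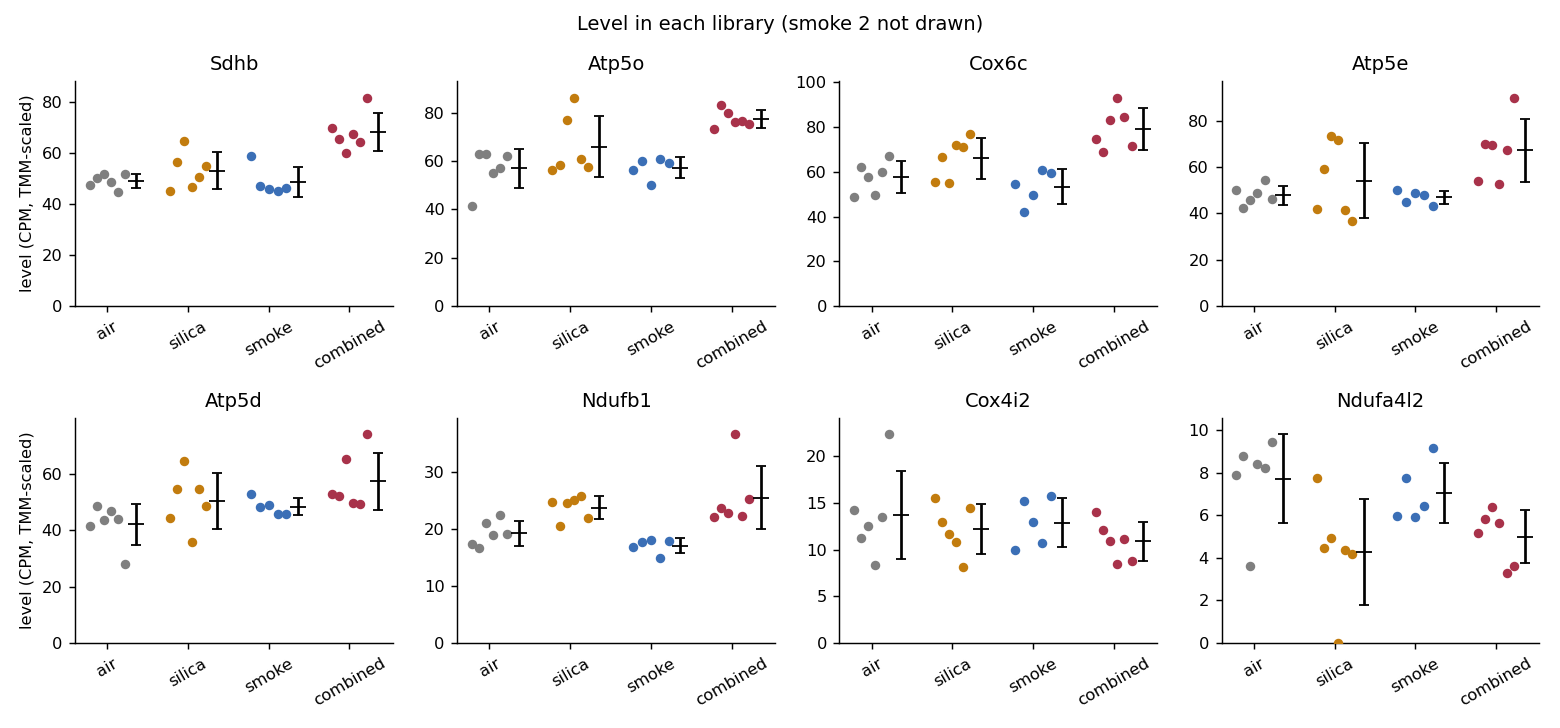
Level in CPM (vertical axis, from 0) of 8 members in each library, by group, with 5 smoke libraries and 6 in each other group. Points are libraries and the bar beside them is the mean ± SD. For Sdhb, Atp5o and Cox6c every combined library is above every air and smoke library, while Cox4i2 and Ndufa4l2 overlap in all 4 groups.

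These calls were not equally firm. Sdhb, Atp5o, Cox6c, Atp5d and Atp5e were called whichever of the 24 libraries was left out and by DESeq2 as well, which called 5 members in all (beside 6.82% of all genes higher). Limma voom with library weights called 16 (beside 14.5%). The other 5 each lost their call in 5 to 11 of the 24 omissions. Leaving out air 6 left 6 called members and leaving out combined 6 left 5. The share of all genes called was not counted in these refits, so the drops may not be particular to the members. With the 3 libraries that stood apart left out there were 10, of which 9 were in common with the fit of all libraries, beside 12.1% of all genes called higher. Air 6, with a limma voom weight of 0.27 beside 0.25 for smoke 2, was kept in that fit.

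Against smoke alone, members of all 5 complexes passed the test as higher in the combined group, and none as lower. The called members were 15 of 82 (18.3%), beside 7.34% of all genes called higher and 5.57% called lower. This comparison uses the same 6 combined libraries as the comparison with air. Complex V gave 5 of the 15 (Atp5a1, Atp5e, Atp5j2, Atp5l and Atp5o), complex I gave 5 (Ndufa2, Ndufa8, Ndufb1, Ndufb2 and Ndufs5), complex IV gave 3 (Cox5b, Cox6c and Ndufa4), complex II gave Sdhb and complex III gave Uqcrq. The median log2 difference was 0.23 over the tested members, beside 0.00 over all genes, and 76 of 82 were above 0. At an unadjusted p under 0.05, 36 members were higher (beside 14.7% of all genes) and none was lower (beside 13.2%). In 9 members (11.0%) all combined libraries lay above all 6 smoke libraries, beside 4.51% of all genes. They were Atp5a1, Atp5e, Atp5o, Cox5a, Cox6c, Ndufa11, Ndufb1, Ndufb2 and Sdhb.

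Of the members already described, Cox6c was 0.58 ± 0.12 higher in combined than in smoke (edgeR adjusted p = 0.0019), Sdhb 0.48 ± 0.10 (adjusted p = 0.0029) and Atp5o 0.44 ± 0.10 (adjusted p = 0.0044). Ndufb1 stood at 15.0 to 18.1 CPM in smoke, below all 6 combined libraries, and was 0.53 ± 0.13 higher in combined (edgeR adjusted p = 0.008). These 4 were called whichever library was left out. Atp5e (0.53 ± 0.14), Ndufa2 (0.45 ± 0.15) and Ndufs5 (0.41 ± 0.13) were also called in both comparisons. Atp5d, Sdhd and Ndufa12, called against air, gave 0.25 ± 0.13, 0.20 ± 0.090 and 0.69 ± 0.26 against smoke and were not called (edgeR adjusted p = 0.22, 0.13 and 0.073).

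The 8 members called against smoke but not against air stood lower in smoke than in air by their medians, which that way of choosing them favours. Of all 82 tested members 66 were below 0 in smoke against air. Atp5a1, the alpha subunit whose promoter is shown above, stood at 213 to 268 CPM (median 229) in air, 183 to 228 CPM (median 207) in smoke and 239 to 273 CPM (median 252) in the combined group, so that combined lay above smoke without overlap but not above air. It was 0.30 ± 0.10 higher in combined than in smoke (edgeR adjusted p = 0.038). Atp5l and Atp5j2, the g and f subunits of the membrane sector, had medians of 68.5 and 49.9 CPM in smoke and 89.3 and 61.6 CPM in the combined group, with overlap. They were 0.37 ± 0.11 and 0.32 ± 0.11 higher (edgeR adjusted p = 0.021 and 0.047). Ndufb2, a membrane-arm accessory subunit, stood at 17.1 to 20.8 CPM in smoke and 21.1 to 31.0 CPM in the combined group, without overlap, and Ndufa8, an intermembrane-space accessory subunit, at 22.1 to 34.7 and 27.2 to 44.9 CPM, with overlap. Their log2 differences were 0.45 ± 0.14 and 0.42 ± 0.13 (edgeR adjusted p = 0.038 and 0.037).

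Ndufa4, named for complex I and later placed in complex IV, stood at 48.9 to 63.3 CPM (median 50.1) in air, 42.3 to 46.8 CPM (median 45.9) in smoke and 45.5 to 64.8 CPM (median 60.0) in the combined group. It was 0.35 ± 0.10 higher in combined than in smoke (edgeR adjusted p = 0.019), and it was the 1 member of 82 (1.22%) whose 5 smoke libraries all lay below all air libraries, beside 0.57% of all genes. Cox5b, which faces the matrix, stood at 28.5 to 43.0 CPM in smoke and 37.2 to 57.4 CPM in the combined group, and Uqcrq, a small subunit of complex III, at 18.1 to 22.8 and 21.6 to 33.9 CPM. They were 0.41 ± 0.13 and 0.53 ± 0.16 higher (edgeR adjusted p = 0.04 and 0.027), with overlap between groups in both. Cox5a and Ndufa11 did not overlap between the groups and yet were not called, with 0.34 ± 0.15 and 0.35 ± 0.12 (edgeR adjusted p = 0.12 and 0.054).

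**Figure D3:**
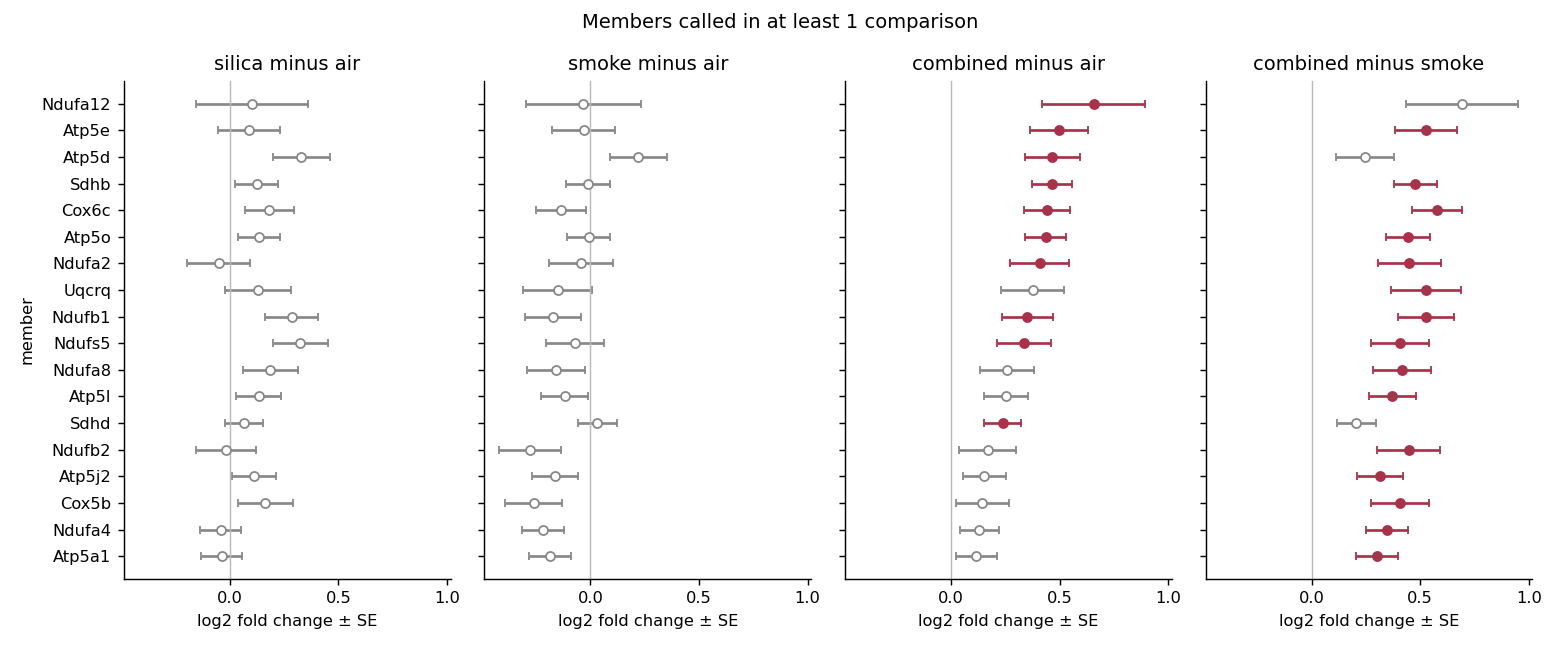
Log2 fold change ± SE (horizontal axis) of the 18 members called in at least 1 comparison (vertical axis), in 4 comparisons by panel, with filled red points where the edgeR call was made. In combined minus air 10 points are filled and in combined minus smoke 15, while in the silica and smoke panels none is.

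The count against smoke moved with single libraries and with the tool. With silica 1, smoke 1 and smoke 2 left out it was 23, beside 9.9% of all genes called higher, and 14 of the 15 were among them. The exception was Ndufa2. DESeq2 called 4 (Sdhb, Atp5o, Cox6c and Atp5e), beside 5.21% of all genes with an adjusted p. It covered 93 members and gave 19 of them no adjusted p. Among members with an adjusted p, the share that DESeq2 called was near that of all genes. Limma voom called 31, beside 13.2%. Leaving out smoke 3, smoke 4, smoke 5 or combined 3 left 7 called members, and leaving out combined 6 left 9. Here too the share of all genes called was not counted, so the drops may not be particular to the members.

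Silica alone left no member called in either direction by edgeR (beside 2.15% of all genes higher and 1.01% lower), with 5 members higher (beside 9.31%) and 3 lower (beside 8.91%) at an unadjusted p under 0.05. DESeq2 called none (beside 1.95% of all genes higher and 1.3% lower), and limma voom called Ndufc1 and Ndufs5 higher (beside 4.33%). The median log2 difference over the tested members was 0.06, and 49 of 82 were above 0. The smallest p values belonged to Ndufc1, a small membrane subunit of complex I (0.43 ± 0.16, edgeR adjusted p = 0.14), Ndufs5 (0.32 ± 0.13, 0.16) and Cox5a, a matrix-facing oxidase subunit (0.35 ± 0.14, 0.16). Cox5a stood at 37.1 to 74.8 CPM (median 51.7) in air and 46.6 to 83.0 CPM (median 69.4) in silica, with wide overlap. Its lowest air library was air 6, where LOC100361008, a gene of like description, held 49 counts. Whether those reads belong to Cox5a was not tested. Without silica 1, the library that went against its label, and also without smoke 1 and smoke 2, Cox5a was called higher (beside 5.96% of all genes) and Ndufa4l2 lower (beside 5.85%).

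Smoke alone also left no member called by edgeR (beside 0.0976% of all genes higher and 0.0525% lower), by DESeq2 or by limma voom. At an unadjusted p under 0.05, none was higher (beside 4.13% of all genes) and 4 were lower (beside 4.17%): Ndufa11, Ndufa10, Ndufa6 and Ndufa4. Of the 82 tested members 16 were above 0, and the median log2 difference was -0.08, beside -0.01 over all genes. Ndufa11, a membrane-arm subunit, stood at 25.4 to 38.1 CPM (median 32.8) in air and 21.4 to 26.4 CPM (median 24.1) in smoke. The 2 groups overlapped in part, with -0.41 ± 0.12 (edgeR adjusted p = 0.24). Ndufa10, which has a nucleoside kinase fold, gave -0.26 ± 0.092 and Ndufa6, an LYR-motif protein, -0.26 ± 0.10 (edgeR adjusted p = 0.38 and 0.46). Leaving out the 3 libraries that stood apart gave no call either.

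Adding smoke to silica, as combined against silica, gave no called member by edgeR (beside 0.12% of all genes higher and 0.128% lower), by DESeq2 or by limma voom, with 10 higher (beside 6.79%) and none lower (beside 6.07%) at an unadjusted p under 0.05. The smallest p values were those of Sdhb (0.34 ± 0.10, edgeR adjusted p = 0.13), Uqcrc1 (0.34 ± 0.10, 0.15) and Ndufa2 (0.46 ± 0.15, 0.17). All combined libraries lay above all silica libraries for Ndufa2, at 23.7 to 31.0 against 14.4 to 21.9 CPM, and for Ndufb6, a membrane-arm subunit, at 16.0 to 19.8 against 10.8 to 16.0 CPM. These were 2 of 82 (2.44%), beside 0.743% of all genes. Nor was any called with the 3 libraries left out.

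Whether the effect of both exposures departed from the sum of the separate effects on the log2 scale was tested as an interaction. No member was called by edgeR (beside 0% of all genes in either direction), by DESeq2 or by limma voom. At an unadjusted p under 0.05, 14 members were higher (beside 3.9% of all genes) and none lower (beside 3.43%). Of the 82, 70 were above 0, and the median was 0.20, beside 0.01 over all genes. Ndufa11 had the smallest p (0.57 ± 0.17, edgeR adjusted p = 0.39). For Ndufa11 the median was 32.8 CPM in air, 28.5 in silica, 24.1 in smoke and 30.8 in the combined group, so that it was below air after each single exposure and close to air after both. Ndufa4 (0.39 ± 0.14) and Sdhb (0.35 ± 0.14) came next (edgeR adjusted p = 0.53 and 0.64). With the 3 libraries left out the interaction called none, and its median over the members was 0.22.

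**Figure D4:**
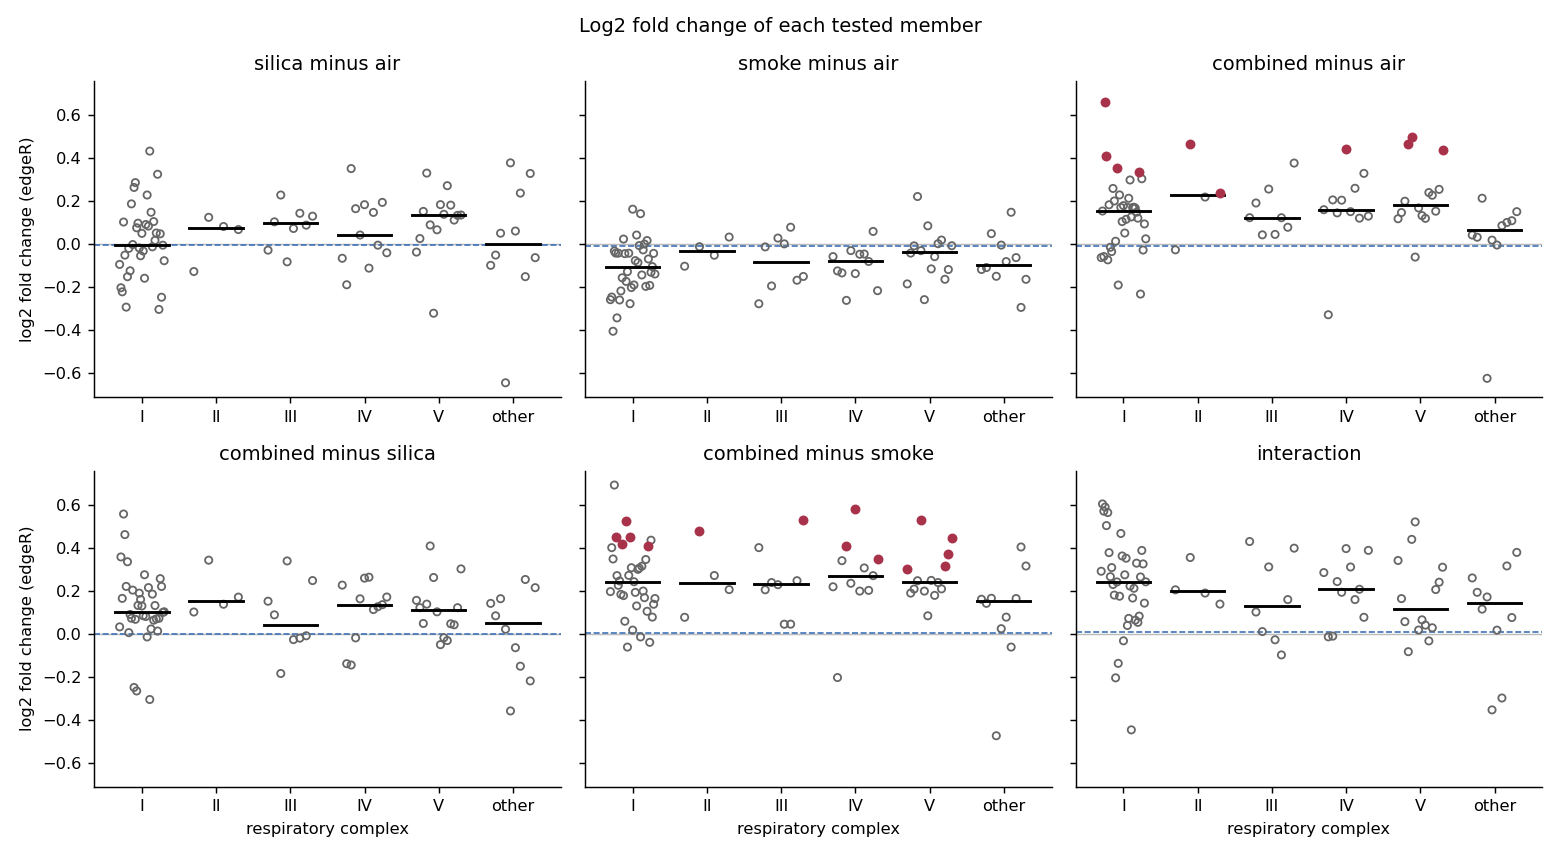
Log2 fold change (vertical axis) of each of the 82 tested members by complex (horizontal axis; other holds assembly factors, Ndufa4l2, Atp5s, Atp5sl and Cox7a2l), in 6 comparisons by panel. Filled red points were called by edgeR, black bars are medians of each complex and the dashed line is the median of all genes. The 10 and 15 called members all lie above 0, and the combined minus smoke panel has the highest medians.

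Isoforms of the same subunit, which differ by tissue or oxygen supply, included none that was called against air. Cox4i2, the lung-enriched form known for its part in oxygen sensing, stood at 8.39 to 22.3 CPM (median 13.0) in air and 8.45 to 14.1 CPM (median 11.0) in the combined group. These groups overlapped, with a log2 difference of -0.33 ± 0.20 (edgeR adjusted p = 0.26), beside 0.16 ± 0.091 for Cox4i1. Ndufa4l2, a hypoxia-induced relative of Ndufa4, stood at 3.62 to 9.43 CPM (median 8.31) in air, 0 to 7.76 CPM (median 4.42) in silica, 5.90 to 9.17 CPM (median 6.42) in smoke and 3.31 to 6.38 CPM (median 5.41) in the combined group. Its level of 0 was in silica 4, which held 280484 counts. Its log2 differences from air were -0.64 ± 0.25 in silica and -0.62 ± 0.24 in the combined group, the lowest of the tested members in both, and neither was called (edgeR adjusted p = 0.16 and 0.063). Without air 3, where it was lowest among air libraries, it was called lower in the combined group.

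The muscle forms had few counts. Cox6a2 had medians of 1.48 CPM in air and 0.821 CPM in the combined group, and Cox8b 2.73 and 1.71 CPM. Cox6b2, the testis form, had 1.26 and 0.745 CPM, and Cox8c had no count in any library. A gene with 3 counts stands at 1.29 CPM at the median depth. None of these 4 passed the filter on low counts, so they have no test here. LOC688869, described in RefSeq as cytochrome c oxidase subunit 6B1, is no member by its symbol. It gave 0.07 ± 0.12 in combined over air and 0.20 ± 0.13 over smoke, and neither was called (edgeR adjusted p = 0.74 and 0.33). The common forms Cox6a1, Cox7a2 and Cox8a gave 0.20 ± 0.075, 0.15 ± 0.14 and 0.33 ± 0.15 in combined over air, and none was called (edgeR adjusted p = 0.05, 0.47 and 0.12). The 3 genes for the c subunit of the ATP synthase ring, which code for an identical mature protein, gave -0.06 ± 0.15 for Atp5g1, 0.17 ± 0.10 for Atp5g2 and 0.13 ± 0.10 for Atp5g3, and none was called (edgeR adjusted p = 0.83, 0.22 and 0.39).

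Some members have another gene of the same or a like description in the count table, and their counts are uncertain. The sequences of these genes were not compared. Ndufa1-2 ran from 0 to 51 counts between libraries, Atp5f1 from 0 to 21, and Ndufs6 had at most 2 counts while LOC100912599, of like description, had up to 39. Counts of Ndufa1-2 and Atp5f1 jumped between libraries within the air and combined groups. LOC100912599 had no count in any silica library and 0 to 31 counts in the combined group. The members Ndufa1-2, Atp5f1 and Ndufs6 were not tested. Tested members had such genes too. LOC100361008, described as like Cox5a, had 49 counts in air 6, where Cox5a had 181, and at most 6 in any other library. For Ndufb4, LOC691675 had up to 70 counts and LOC100361934 up to 20. How reads were divided between such genes was not tested. Low counts of Ndufa1, Ndufs6 and Atp5f1 here cannot be taken to measure those subunits.

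Other mitochondrial genes were counted in lists for comparison, with the same fit and calls, and the counts stand beside 11.6% of all genes called higher and 10.8% called lower in combined against air. Of 18 tested genes of the TCA cycle and pyruvate dehydrogenase, 3 rose and 1 fell in combined against air, with a median log2 difference of 0.12. Suclg1, a subunit of succinyl-CoA ligase, rose by 0.65 ± 0.14 (edgeR adjusted p = 0.0012), and Pdha1, the alpha subunit of pyruvate dehydrogenase E1, had -0.25 ± 0.084 (adjusted p = 0.032). Pdhx, which binds E3 to that complex, and Fh, the fumarase, rose by 0.61 and 0.38. Of 17 electron carriers and genes that supply them, 3 rose and none fell: Etfb and Etfa, the subunits of the electron transfer flavoprotein, and Adck3, needed for ubiquinone synthesis. Cycs, which codes for cytochrome c, gave 0.56 ± 0.23 and was not called (edgeR adjusted p = 0.085). Of 7 carriers, Slc25a5, an ADP/ATP exchanger, and Ucp2, an uncoupling protein, rose, by 0.49 and 0.62, and none fell.

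Assembly factors gave a smaller share of calls than all genes. Of 40 tested, 1 of them the member Atp5sl, only Coa3 rose (0.52 ± 0.14) and Cox19 fell (-0.49 ± 0.17), both acting on complex IV, and the median was 0.00. The 6 tested assembly factors among the members, named Ndufaf, gave no call in any comparison and a median of 0.09 in combined against air. Of 11 regulators of mitochondrial biogenesis, Esrra, the estrogen-related receptor alpha, rose by 0.61 ± 0.15 (edgeR adjusted p = 0.0028). It was not called against smoke, at 0.38 ± 0.15 (adjusted p = 0.1). Ppargc1a, the coactivator of that receptor, gave -0.37 ± 0.15 (adjusted p = 0.063), Nrf1 -0.09 ± 0.10 and Gabpa -0.03 ± 0.10, and none of these was called.

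The ribosomal protein lists, another large set of small proteins, gave values to read the members against. In combined against smoke, 14 of 76 tested cytosolic ribosomal protein genes were called higher and none lower, with a median of 0.19, and 2 of 69 mitochondrial ribosomal protein genes, with a median of 0.16. Beside them stood 7.34% of all genes, a smaller share than that of the cytosolic list and a larger one than that of the mitochondrial list. Against air the counts were 7 of 76 and 1 of 69 higher, both a smaller share than the 11.6% of all genes, with medians of 0.11 and 0.07, and none was lower. A median above that of all genes was thus not limited to the oxidative phosphorylation members. Of 20 tested glycolysis and hypoxia targets, 9 rose and 1 fell in combined against air, with a median of 0.27. Hk2, hexokinase 2, rose by 0.92 ± 0.14 (edgeR adjusted p = 2.6e-05), Slc2a1, a glucose transporter, by 0.89, and Vegfa was the 1 that fell, by 0.37.

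**Figure D5:**
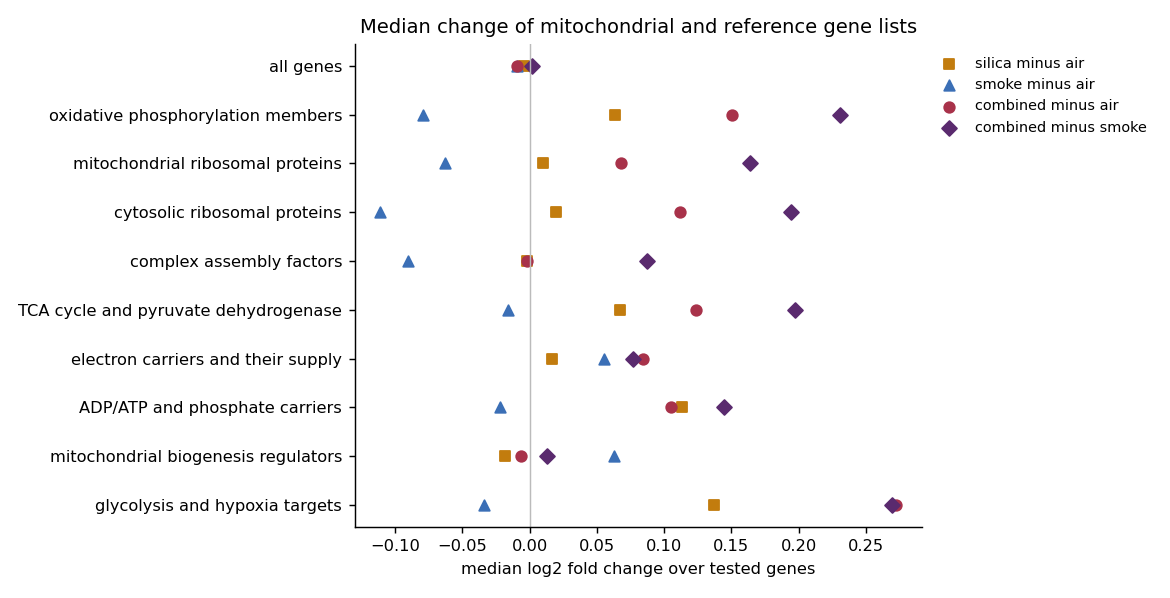
Median log2 fold change over the tested genes (horizontal axis) of the members, 8 other gene lists and all genes (vertical axis), with 1 marker for each of 4 comparisons. The members' medians are 0.06 in silica minus air, -0.08 in smoke minus air, 0.15 in combined minus air and 0.23 in combined minus smoke. Cytosolic and mitochondrial ribosomal proteins and the TCA cycle list take the same order. Assembly factors do so with near-equal medians in silica minus air (-0.0017) and combined minus air (-0.0016). The glycolysis list departs only by 0.272 in combined minus air beside 0.269 in combined minus smoke. The ADP/ATP and phosphate carriers depart only by 0.113 in silica minus air beside 0.105 in combined minus air. The remaining lists do not take that order.

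Markers of cell types also moved in combined against air, beside 11.6% of all genes called higher and 10.8% lower. Of 10 tested macrophage markers 4 rose (Fabp4, Siglec1, Msr1 and Cd68) and Cd163 fell, and the summed level of the list ran over 728 to 1540.2 CPM in air and 1484 to 1623 CPM in the combined group. Neutrophil markers gave 5 of 6 higher, with S100a9, S100a8, Il1r2 and Csf3r at the smallest p, and their sums were 87.8 to 155 and 392 to 848 CPM, respectively. Alveolar type 2 markers gave 5 of 10 higher, led by Sftpd, Lpcat1, Napsa and Lamp3, with sums of 14861 to 23894 and 27455 to 32143 CPM. Endothelial markers gave 5 of 8 lower, led by Cldn5, Pecam1, Tek and Cdh5, with sums of 3710.5 to 4534 and 2720.5 to 3056 CPM. Smooth muscle and pericyte markers gave 6 of 11 lower, led by Abcc9, Pdgfrb, Cspg4 and Notch3, with sums of 768 to 1852 and 602 to 724 CPM, and ciliated cell markers 4 of 9 lower (Dnai1, Foxj1, Rsph1 and Tppp3), with sums of 615 to 868 and 506 to 647 CPM. In silica the sums were 1137 to 1673, 127 to 681, 15191 to 28781, 2892 to 4510.1, 545 to 968 and 507 to 779.7 CPM in that order of lists. In the 5 smoke libraries they were 1085 to 1365, 137 to 515, 16745 to 23262, 3622 to 4406, 776 to 1013 and 720.5 to 799 CPM. The part of these cell types in the member levels was not tested.

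Heart muscle is rich in these complexes. Of 9 tested cardiac muscle markers none was called in combined against air by edgeR, and none was above 0. Their sums ran over 28.8 to 267 CPM in air, 49.5 to 165 in silica, 132 to 181 in smoke and 15.5 to 222 in the combined group, with wide overlap. The part of this list in the member levels was not tested. Of 5 brown adipocyte markers, Ucp1, Plin1 and Elovl3 were at 0 in every library. The 7 skeletal muscle markers summed to 5.37 to 14.3 CPM in air and 6.20 to 12.4 CPM in the combined group.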

How the data were processed

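The authors deposited 1 table of raw read counts, with a row per gene and a column for each of the 24 libraries. Lung RNA was depleted of ribosomal RNA and put through a stranded kit, per the labels' protocols. HISAT2 2.1.0, HTSeq 0.11.2, SAMtools 1.8, Cufflinks, Trimmomatic 0.35 and bcl2fastq 2.19 are named in the submitters' processing notes. Genome build, annotation and strand setting were not given in the sources used here. Counts of overlapping genes are therefore uncertain. After 26 repeated lines were removed from 30069, 30043 genes remained.

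Counts were fitted in R 4.3.3 with edgeR 4.0.16 (TMM scaling, filterByExpr with a minimum count of 10, quasi-likelihood test, 1 mean per group over all 24 libraries, 20 residual degrees of freedom). Of all genes 13322 were tested in 6 contrasts, two-sided, with Benjamini-Hochberg adjustment over all genes; adjusted p under 0.05 was called. The labels number 6 rats per group and no other source of the libraries, so p-values measure the spread between these samples. Alternatives were RLE scaling, no filter, DESeq2 1.42.0, limma 3.58.1 voom with quality weights, the compared groups only, and omitted libraries. The fits were first tested on simulated counts. No pair of libraries agreed within sampling noise (lowest chi-square per degree of freedom 1.66). Levels are CPM on TMM-scaled totals.

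Members and lists were chosen with earlier results of these data known. Named were all members called in any contrast (up to 25 each), the 3 lowest p values in contrasts with under 3 calls, the 2 highest by mean CPM of each complex, isoform partners, the complex II subunits, members not tested, and up to 4 called genes of each list (here for combined against air, with ribosomal genes and other comparisons given as counts); Ndufb6, Cycs, Ppargc1a, Nrf1 and Gabpa were named after their values were seen. A further item under this rule is not reported here.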

Additional observations from a re-analysis of the deposited data

Results flagged for a closer look

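Levels of the 5 complex sums and of the 18 called members were checked in each group for a library far from the other 5 (gap to its nearest neighbour over 0.625 of the group's range). This was done in 92 groups, of which 22 had such a library. Chance alone gives about 1 in 20 groups.

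Smoke 2 accounts for 15 of the 22. Its complex I sum was 212 CPM and its complex IV sum 794 CPM. It had no count of Atp5a1, Atp5d, Atp5e, Atp5j2, Cox6c, Ndufa8, Ndufb1, Ndufb2, Ndufs5, Sdhb or Uqcrq (0 CPM each), and 3 counts each of Atp5l and Sdhd, which is 159 CPM. The library held 21629 counts in all.

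The other 7 were in deeper libraries. Air 4 was high for the complex II sum (346 CPM), air 1 low for complex V (1286 CPM) and combined 4 low for complex III (409 CPM). Air 6 was low for Atp5d (28.1 CPM) and high for Ndufa4 (63.3 CPM). Combined 5 was high for Ndufa12 (20.3 CPM) and combined 4 for Ndufb1 (36.6 CPM).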

How the results depend on the processing

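For combined against air, the 10 members called higher became 6 with no filter on low counts, 5 with DESeq2 and 16 with limma voom; leaving out 1 library gave 5 to 13 higher (6 without air 6, 5 without combined 6) and 0 to 1 lower (Ndufa4l2, without air 3). For combined against smoke, the 15 became 8 with no filter, 4 with DESeq2, 31 with limma voom and 23 without silica 1, smoke 1 and smoke 2, and 7 to 21 with 1 library left out (7 without smoke 3, 4 or 5 or combined 3). For silica against air, limma voom called 2 higher, the fit without those 3 libraries 1 higher and 1 lower, and single omissions 0 to 1 in each direction. The cause was not tested. No share of all genes is set beside the counts with no filter or with 1 library left out. Smoke against air, combined against silica and the interaction gave 0 calls in every alternative run. Sdha in combined against air ran from -0.043 to 0.0078 with 1 library left out, and was above 0 without combined 4. The members' median stayed within 0.13 to 0.17 (combined against air) and 0.18 to 0.25 (combined against smoke) in every alternative. DESeq2 was run with no filter on low counts and so covered 93 members. Its median of all genes in combined against smoke was -0.12, beside 0.00 in the main fit, with the members at 0.19. The sets of genes differ between these medians. DESeq2 gave no adjusted p for 25 of the 93 members in silica against air, 10 in combined against air and 19 in combined against smoke. The median standard error of a member was 0.12 to 0.13 (log2), in which counting noise and spread between rats were not separated. Depth limits smoke 2 most, where 1 count is 53.0 CPM. No paired analysis was possible because the labels give the groups no shared replicate numbers.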
